A study of Homo sapiens with 24 samples.

Results

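SMARCA4 sites that were called in control RD cells and in no TWIST2 knockdown library made up 3207 of 48009 merged SMARCA4 regions, or 6.68%. They were chosen by merging the 4 SMARCA4 peak lists wherever peaks overlapped by at least 1 bp. A region was kept if both control lists and neither knockdown list had a peak in it. They are called control-only regions here. Because they were selected on the SMARCA4 lists themselves, their SMARCA4 values are a description and carry no test. The MYOD, H3K27ac and tagged TWIST2 lists took no part in the choice.

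RD is an established human cell line of fusion-negative rhabdomyosarcoma, a soft tissue tumour with features of arrested skeletal muscle development. Chromatin immunoprecipitation and sequencing was done with antibodies to SMARCA4, MYOD and H3K27ac in cells of the control genotype and of the TWIST2 KD (knockdown) genotype, and with an antibody to the Ty1 tag in cells of the 3xTy1-TWIST2 genotype, with 2 libraries in each group. The labels give neither the knockdown method nor the promoter of the tagged gene, and do not say whether replicates were separate cultures, so each p-value measures only the spread between these libraries. The SMARCA4 libraries belonged to a set named RD-2 and all others to a set named RD-1, names that the labels do not explain.

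SMARCA4 (BRG1) is a motor subunit of SWI/SNF remodellers, which use ATP to slide or evict nucleosomes and so open DNA to other factors. MYOD is the basic helix-loop-helix factor that drives skeletal muscle differentiation, and it is known to work with SWI/SNF complexes at muscle genes. TWIST2 belongs to the same factor family, binds similar E-box motifs and is known as an inhibitor of muscle differentiation. H3K27ac is an acetylation of histone H3 that marks active promoters and enhancers.

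The 4 SMARCA4 libraries were not alike. Control 1 had 11835 peaks, control 2 had 25013, knockdown 1 had 12518 and knockdown 2 had 14676, so control 2 stood apart from the rest. Total tags ranged from 36095336 to 46690705 and were higher in both controls than in either knockdown library. The share of tags within peaks was 0.88% and 1.83% in the controls and 0.65% and 0.70% in the knockdown libraries. At the 534 regions called in all 4 libraries, the median normalized tag count (tags in the peak, scaled by HOMER to a library of 10000000 tags) was 9.0 and 9.60 in the controls against 5.82 and 6.09 after knockdown. Peak windows were also wider in the controls (195 and 159 bp) than after knockdown (141 and 145 bp), and per 100 bp of window the same medians were 4.62 and 6.04 against 4.13 and 4.2. The lower signal after knockdown at regions that kept their peak therefore moved with the loss of calls at control-only regions, and its part in that loss was not tested. A control-only region is one without a call after knockdown, which is not a measurement of absent SMARCA4, since the lists give no tag count where no peak was called.

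Most SMARCA4 regions found in both controls were not called after knockdown. Of 5658 such regions, 56.7% were control-only, 33.9% (1917 regions) kept a peak in 1 knockdown library and 9.44% (534 regions) kept one in both. Calls also differed between libraries of 1 condition. Of all merged regions, 4772 were called in control 1 alone, 15089 in control 2 alone, 6755 in knockdown 1 alone and 9148 in knockdown 2 alone. A missing call was therefore not particular to knockdown. The opposite class, with a peak in both knockdown libraries and neither control, held 918 regions, so that control-only regions outnumbered it 3.49-fold. That ratio fell to 2.03 when each list was cut to its 11835 strongest peaks, where 2023 regions were control-only and 999 were knockdown-only, and to 1.37 when a peak in 1 library of a condition was enough. It rested on each library: it was 16.6 without control 1, 5.43 without control 2, 0.421 without knockdown 1 and 0.524 without knockdown 2, since a condition with 1 list left has an easier rule to meet.

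Control-only regions ranged from weak to strong SMARCA4 peaks but did not include the highest values, which reached 44.5 in the list of control 1 and 95.3 in that of control 2. Their normalized tag count ran from 3.43 to 25.5 with a median of 7.71 in control 1, and from 2.90 to 27.4 with a median of 8.03 in control 2. The 2 controls ranked them alike, with a Spearman's rho of 0.859 across the 3207 regions, which share their libraries and are not replicates. The median of the mean over both controls was 7.87, against 8.43 at regions that kept 1 knockdown peak and 9.29 at those that kept both. Even so, 986 control-only regions (30.7%) lay above the median of the regions called in all 4 libraries, and 107 lay above the 90th percentile of those regions. In control 1, 463 of the control-only regions (14.4%) were among the strongest 10% of all peaks of that list, and in control 2 the number was 564 (17.6%). The lists also hold peaks called in 1 control alone, which the rule leaves out. These shares are therefore not read as an excess over 10%.

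The share that was control-only fell with strength but stayed large at the top. When the 5658 regions were divided into 5 groups of like size by strength, 71.9% of the weakest group, with mean tag counts up to 5.82, were control-only. The next groups in order of strength had 55.7%, 56.4% and 51.5%. In the strongest group, from 11.1 upward, 47.8% were control-only and 14.4% were called in both knockdown libraries.

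**Figure D1:**
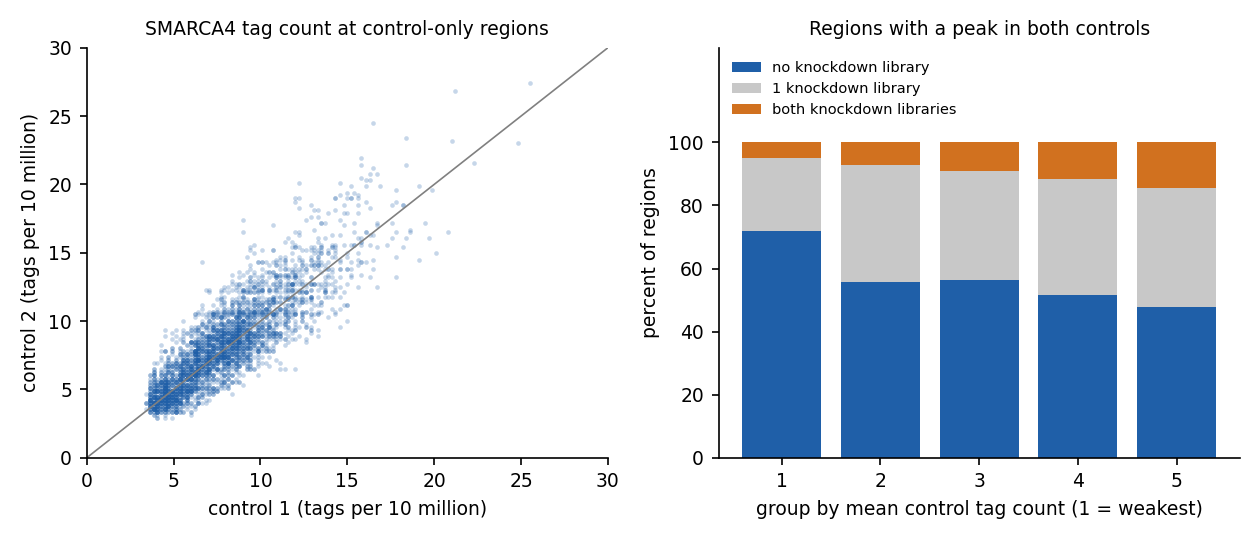
Left, normalized SMARCA4 tag count in control 1 (x axis) and control 2 (y axis), scaled to 10000000 tags per library, with 1 point for each of the 3207 control-only regions and the line of equal values. Right, for regions called in both controls, the percent with a peak in no, 1 or both knockdown libraries in 5 groups of rising mean control tag count. The control-only share goes from 71.9% in the weakest to 47.8% in the strongest.

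The strongest control-only region was chr7:101030110-101030360 (positions are in build hg19), with normalized tag counts of 25.5 in control 1 and 27.4 in control 2. It had peaks in both Ty1 libraries and in all 4 libraries of MYOD and of H3K27ac. The region at chr1:33899495-33899689 followed with 21.2 and 26.8, had no Ty1 peak, and had a MYOD peak in 1 control library and in neither knockdown library. At chr1:144931693-144931903 the counts were 24.8 and 23, with a MYOD peak in 1 library of each condition. The first of these was an acetylated MYOD site in every library, while the second had H3K27ac in every library and MYOD in a single control.

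Across the 10 strongest control-only regions, mean tag counts ran from 19.5 to 26.45. Their fold over input was 4.18 to 7.47 in control 1 and 4.11 to 67.3 in control 2. The peak caller required at least 4-fold, so some regions with high tag counts were close to that limit. All 10 had a MYOD peak in at least 1 library, and 7 had one in all 4. An H3K27ac region called in all 4 libraries covered 9 of them. The exception was chr20:30424055-30424315, with SMARCA4 counts of 16.5 and 24.5, where H3K27ac was called in both controls and in neither knockdown library. Tagged TWIST2 lay at 7 of the 10. At chr2:238110738-238110936, with counts of 19.9 and 19.6 and no Ty1 peak, MYOD was called in both controls and in neither knockdown library, within H3K27ac that was called in all 4. A pair of the strongest regions, chr8:31677585-31677779 with counts of 21.0 and 23.2 and chr8:31936277-31936471 with 18.4 and 21.4, lay on the same chromosome and had TWIST2, MYOD and H3K27ac peaks in every library.

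The edges of the rule were set by the peak caller, which required at least 4-fold more tags than in the input. Among the control-only regions nearest to that limit in both controls was chr2:181603834-181604104, at 4.06-fold and 4.08-fold over input and tag counts of 6.21 and 7.36. Just outside the rule, chr9:93063609-93063836 had 25.9 and 32.1 in the controls and was called in knockdown 1 at 11.9 and not in knockdown 2. Likewise, chr10:105668099-105668358 had 23.1 and 27.2 in the controls and 9.97 in knockdown 1. These regions, which the rule left out for a single knockdown peak, had lower counts in that peak than in either control. They were picked for the highest control counts among such regions, which favours that order. Counts after knockdown were also lower at regions called in all 4 libraries, so the order is not read as a result.

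Some control-only regions lay near SMARCA4 that was called after knockdown, and most did not. The nearest knockdown SMARCA4 peak was within 500 bp of 520 control-only regions (16.2%) and within 1000 bp of 691 (21.5%). The median distance was 16293 bp, and 307 regions (9.57%) had no knockdown peak within 100000 bp.

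Tagged TWIST2 was found at a like share of control-only and knockdown-only SMARCA4 regions. A region in which both Ty1 libraries had a peak lay at 1139 control-only regions, or 35.5% (95% Wilson interval 33.9 to 37.2%, which covers counting error only). The share was 35.4% (32.4 to 38.6%) at knockdown-only regions, 43.1% at regions with both controls and 1 knockdown library, 46.3% (42.1 to 50.5%) at regions called in all 4 libraries and 28.4% over all 48009 SMARCA4 regions. Single Ty1 libraries gave 42.4% and 42.0% of control-only regions. Region width differs between these sets and a wider region meets another peak more easily, with median widths of 224 bp for control-only, 190 bp for knockdown-only, 254.5 bp for regions in all 4 and 159 bp for all regions. The tag marks TWIST2 in cells of the 3xTy1-TWIST2 genotype, so it does not show where TWIST2 lay in the control cells of the SMARCA4 libraries.

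Most control-only regions were MYOD sites within acetylated chromatin. A MYOD peak in at least 1 library lay at 85.4% of them (67.6% of all SMARCA4 regions), and 36.6% had one in all 4 libraries (20.5%). These MYOD shares were 92.1% and 55.1% at regions called in all 4 SMARCA4 libraries. With both controls and 1 knockdown library they were 91.5% and 51.9%, so control-only regions were below both of these sets. An H3K27ac peak in at least 1 library lay at 84.3% (74.2% of all SMARCA4 regions), and 71.8% had one in all 4 (55.1%). At regions called in all 4 SMARCA4 libraries these shares were 85.2% and 71.2%, and with both controls and 1 knockdown library 86.3% and 72.6%. Control-only regions are also wider than all SMARCA4 regions (median 224 against 159 bp), and a wider region meets another peak more easily. All 3 of TWIST2, MYOD and H3K27ac were found at 972 control-only regions (30.3%, against 21.0% of all SMARCA4 regions). The largest combination was MYOD with H3K27ac and no TWIST2, at 1425 regions (44.4%, against 35.3%). Only 131 control-only regions (4.08%, against 12.4%) had none of the 3, and their median SMARCA4 tag count of 4.90 was below the 8.33 of regions with all 3.

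A MYOD centre lay at the centre of these regions more often than a TWIST2 centre. In the control MYOD libraries the nearest MYOD centre was within 50 bp of the region centre at 32.7% and 34.4% of control-only regions. In the knockdown MYOD libraries it was 30.0% and 28.4%. For tagged TWIST2 it was 18.9% and 18.5%. The MYOD and TWIST2 cells differ in genotype, and the MYOD and Ty1 lists differ in peak number and window, so these shares are set side by side without a test.

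**Figure D2:**
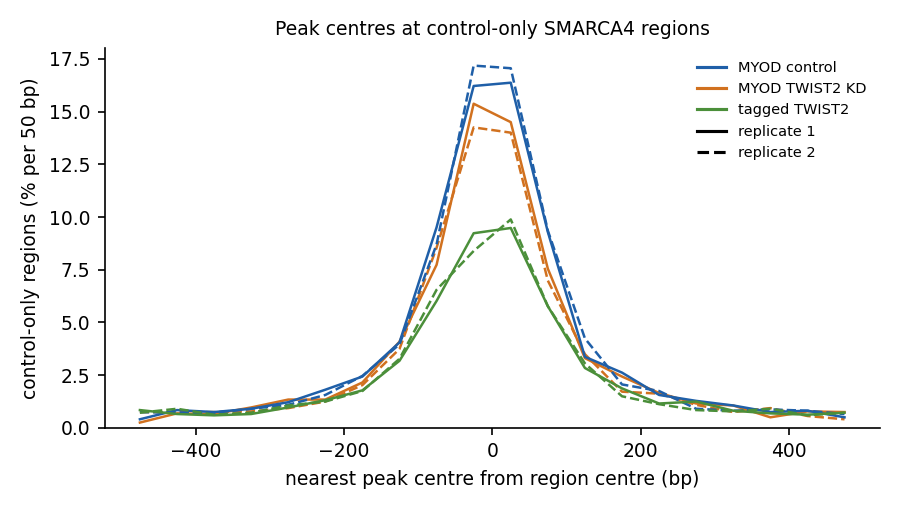
Distance in bp from the centre of each control-only SMARCA4 region to the nearest peak centre (x axis), as percent of the 3207 regions per 50 bp (y axis), for each MYOD and Ty1 library. All 6 curves peak at the region centre, and the 4 MYOD curves stand above the TWIST2 curves there.

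MYOD was called at fewer control-only SMARCA4 regions after TWIST2 knockdown. The share with a MYOD peak was 64.0% in control 1, 65.8% in control 2, 59.1% in knockdown 1 and 56.7% in knockdown 2. Both knockdown libraries were below both controls, and the means of 64.9% ± 1.30 and 57.9% ± 1.68 (SD, n = 2 libraries each) differed by -7.03 percentage points (exact two-sided permutation test, p = 0.33, the smallest that 2 against 2 libraries allow). The knockdown MYOD lists held more peaks (52510 and 48003) than the control lists (44974 and 43381) and had wider windows (213 and 225 bp against 159 and 179 bp).

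All other SMARCA4 regions went the other way, from 40.0% and 41.2% in the controls to 43.8% and 41.9% after knockdown. The gap in MYOD share between control-only and all other regions was 24.0 and 24.6 points in the control libraries and 15.3 and 14.8 points in the knockdown libraries, a change of -9.26 points (exact permutation test, p = 0.33). The decline was not limited to control-only regions: the mean MYOD share also differed by -4.51 points at regions with both controls and 1 knockdown library and by -2.53 points at regions called in all 4 libraries, while it differed by 18.5 points at knockdown-only regions. Set against regions called in all 4 libraries, the change at control-only regions differed by -4.50 points (exact permutation test, p = 0.33). The difference was -4.16 points among the 1069 weakest control-only regions, -8.23 among the 1069 of middle strength and -8.70 among the 1069 strongest.

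H3K27ac at control-only regions was nearly the same in the 2 conditions. The share with an H3K27ac peak was 78.8% and 77.6% in the controls and 78.5% and 77.8% after knockdown, a difference of -0.062 points, with overlapping libraries (exact permutation test, p = 1.0). Over all other SMARCA4 regions it was 61.8% and 59.8% in the controls and 67.5% and 66.5% after knockdown, a difference of 6.15 points. The knockdown H3K27ac lists were also longer (48022 and 46822 peaks against 36679 and 34932). The gap between control-only and all other regions changed by -6.21 points (exact permutation test, p = 0.33). The other regions include the knockdown-only ones, where the difference was 20.4 points. At regions called in all 4 libraries it was 2.15 points and at those with both controls and 1 knockdown library 2.40 points. Set against regions called in all 4, the change at control-only regions differed by -2.22 points (exact permutation test, p = 0.33). At the 2302 control-only regions with an H3K27ac peak in all 4 libraries, the median peak width was 2743 and 2719 bp in the controls and 2757 and 2722 bp after knockdown.

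**Figure D3:**
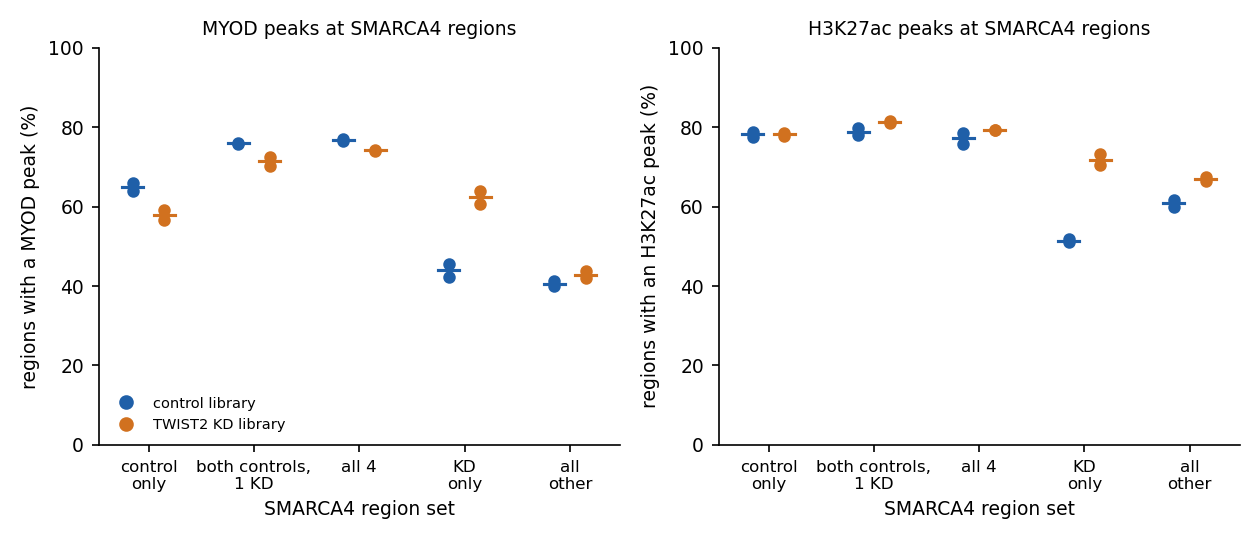
Percent of SMARCA4 regions with a MYOD peak (left) or an H3K27ac peak (right), with 1 point per library and a bar at the mean of 2 libraries, for control-only regions, regions with both controls and 1 knockdown library (KD), regions called in all 4 libraries, knockdown-only regions and all regions that are not control-only. The MYOD points of control-only regions go from 64.0% and 65.8% to 59.1% and 56.7%, while their H3K27ac points overlap.

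The difference in MYOD share was larger at control-only regions without tagged TWIST2 than at those with it. At the 2068 regions without TWIST2, MYOD was called at 56.0% and 57.6% in the controls and at 49.0% and 44.4% after knockdown, a difference of -10.1 points (exact permutation test, p = 0.33). At the 1139 regions with TWIST2, it was called at 78.5% and 80.7% in the controls and at 77.3% and 79.0% after knockdown, a difference of -1.40 points with libraries that overlap (p = 0.667, exact permutation test). The gap in MYOD share between regions with and without TWIST2 was 22.5 and 23 points in the controls and 28.4 and 34.6 points after knockdown, a change of 8.73 points (exact permutation test, p = 0.33). The same split at regions called in all 4 SMARCA4 libraries gave a change of 9.22 points, at regions with both controls and 1 knockdown library 6.55 points and at all other SMARCA4 regions 4.46 points, each with p = 0.33 by the exact permutation test. The split by TWIST2 was therefore not particular to control-only regions. H3K27ac moved by 2.90 points at control-only regions with TWIST2 and by -1.69 points at those without it.

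**Figure D4:**
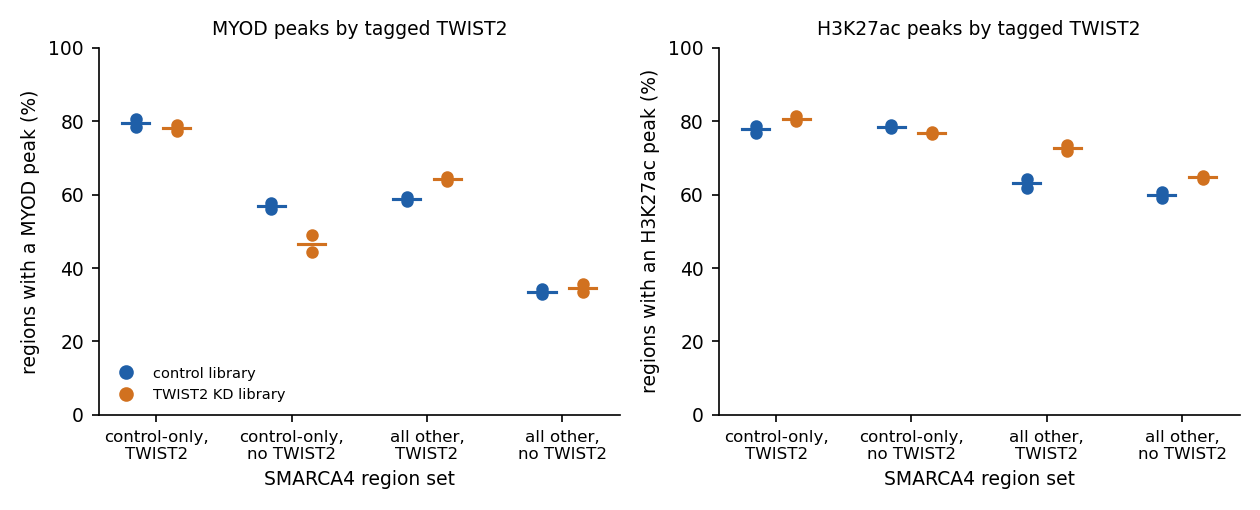
Percent of SMARCA4 regions with a MYOD peak (left) or an H3K27ac peak (right), split by a tagged TWIST2 region, for control-only regions and all other SMARCA4 regions, with 1 point per library and a bar at the mean of 2 libraries. Control-only regions without TWIST2 have MYOD shares of 56.0% and 57.6% in the controls and 49.0% and 44.4% in the knockdown (KD) libraries.

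Joint loss of SMARCA4 and MYOD calls was uncommon. MYOD regions with a peak in both control and neither knockdown library, which are 5.41% of all 88541 MYOD regions, lay at 186 control-only SMARCA4 regions (5.80%). The reverse MYOD class, with both knockdown and neither control library, is 9.1% of all MYOD regions and lay at 53 (1.65%). Counted over the 2862 MYOD regions found there, these were 6.50% and 1.85%, against 5.46% and 6.30% of the MYOD regions at all SMARCA4 regions. At regions called in all 4 SMARCA4 libraries they were 3.70% and 1.95%. The low share of the reverse class was therefore not particular to control-only regions. As a share of SMARCA4 regions, the control-only MYOD class lay at 5.80% (95% Wilson interval 5.04 to 6.66%) of the control-only SMARCA4 regions and at 3.74% (3.57 to 3.91%) of all SMARCA4 regions. For the knockdown-only MYOD class the shares were 1.65% and 4.3%. At regions called in all 4 SMARCA4 libraries, the control-only MYOD class lay at 3.56% and the knockdown-only MYOD class at 1.87%. Of the 186 SMARCA4 regions that lost MYOD, 146 (78.5%) lay in H3K27ac called in all 4 libraries and 31 (16.7%) had tagged TWIST2. Over all 3207 control-only regions these shares were 73.5% and 35.5%, so the first was near its background and the second was below it.

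H3K27ac regions with a peak in both control and neither knockdown library are 4.21% of all 55905 H3K27ac regions, and the reverse class is 19.8%. They lay at 78 and 77 control-only SMARCA4 regions, or 2.92% each of the H3K27ac regions found there. For the control-only H3K27ac class this was near the 3.21% at all SMARCA4 regions and the 2.85% at regions called in all 4 SMARCA4 libraries. The reverse class made up 10.0% of the H3K27ac regions at all SMARCA4 regions and 4.17% (19 of 456) of those at regions called in all 4 SMARCA4 libraries, so its low share was not particular to control-only regions.

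Calls of SMARCA4, MYOD and H3K27ac were lost together at 4 regions, where 186 control-only regions lost MYOD and 78 lost H3K27ac. No such count over all SMARCA4 regions is given here, so the 4 are a description and are not read as few or many. The strongest was chr17:34058537-34058833, with SMARCA4 counts of 11.1 and 6.92 and no Ty1 peak. The others were chr14:83721495-83721706 with 4.50 and 5.80, chr3:24755427-24755773 with 4.28 and 5.58, and chr2:18060429-18060672 with 4.50 and 4.69, of which the first pair had peaks in both Ty1 libraries. These 3 lay in the lower range of SMARCA4 strength.

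Knockdown-only calls lay at 53 control-only regions for MYOD and at 77 for H3K27ac, and 7 regions had knockdown-only calls of both. That joint count likewise has no share over all SMARCA4 regions beside it. The strongest region with a gain of either kind was chr10:102650488-102650721, with SMARCA4 counts of 16.3 and 20.3, no MYOD peak in the controls and a MYOD peak in both knockdown libraries. It carried peaks in both Ty1 libraries and H3K27ac in all 4. Gains of MYOD within constant H3K27ac were also seen at chr14:77385205-77385405, with counts of 16.7 and 12.5, and at chr20:39637059-39637288, with 13.3 and 15.8. At chr10:105251774-105251983, with 13.1 and 15.4, H3K27ac was gained and MYOD was called in all 4 libraries.

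Chromosomes X and 13 held more control-only than knockdown-only SMARCA4 regions for their size in the lists. Chromosome X had 84 control-only regions (2.62%) and chromosome 13 had 75 (2.34%), against 0.218% and 0.327% of knockdown-only regions. Those knockdown-only shares rest on 2 and 3 regions. Over all SMARCA4 regions the shares were 1.34% on chromosome X and 1.35% on chromosome 13. The share of SMARCA4 peaks on chromosome X was 1.66% and 1.80% in the controls and 0.463% and 0.750% after knockdown. On chromosome 13 it was 1.84% and 1.70% against 0.447% and 0.879%. The H3K27ac lists had no such gap on chromosome X, at 2.68% and 2.81% in the controls and 2.71% and 2.8% after knockdown. The MYOD lists had a smaller gap in the same direction there, at 1.81% and 1.89% against 1.34% and 1.61%. On chromosome 13 the H3K27ac shares went the other way, from 2.3% and 2.32% to 2.76% and 2.72%, and the MYOD shares overlapped, at 1.54% and 1.68% against 1.54% and 1.78%. Without both chromosomes, a check chosen after seeing the data, 3048 control-only regions remained and the difference in MYOD share was -6.81 points.

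About 1 in 3 control-only regions had another one nearby. Joined across gaps of at most 100000 bp, 1117 of them (34.8%) fell into 482 loci with at least 2, of which 362 had exactly 2, 120 had at least 3, 21 at least 4 and 9 at least 5. The same joining gave 217 loci from the 1917 regions with both controls and 1 knockdown library. It gave 43 loci from the 918 knockdown-only regions and 16 from the 534 regions called in all 4 libraries. The number of loci depends on how many regions are joined, so it is not read as a property of control-only regions. Neighbouring regions share a source and are not independent.

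Across these 482 loci, MYOD and H3K27ac peaks made up a smaller part of the knockdown lists than of the control lists. They held 4.36% and 4.4% of the MYOD peaks of the controls and 3.6% and 3.57% of those of the knockdown libraries (exact permutation test, p = 0.33). For H3K27ac the shares were 4.81% and 4.89% against 3.80% and 3.84% (p = 0.33 by the same exact test). In numbers of peaks, MYOD went from 1963 and 1909 to 1888 and 1716, and H3K27ac from 1764 and 1709 to 1826 and 1799, so the H3K27ac shares were lower although these numbers were higher, in knockdown lists that were longer as a whole. The 217 loci built in the same way from regions with both controls and 1 knockdown library gave 1.99% and 2.0% against 1.65% and 1.73% for MYOD, and 2.11% and 2.18% against 1.75% and 1.78% for H3K27ac. Of the 217, 15 overlapped a locus of control-only regions. The other 202, a check chosen after seeing the data, gave 1.82% and 1.83% against 1.51% and 1.6% for MYOD, and 1.92% and 2.0% against 1.61% and 1.63% for H3K27ac (exact permutation test, p = 0.33 each).

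The locus with most control-only regions spanned chr2:220295530-220529876, 234 kb with 7 of them among 23 SMARCA4 regions. It held 11 and 15 SMARCA4 peaks in the controls and 6 and 2 after knockdown. The strongest of the 7 was chr2:220317711-220317920, with counts of 14.1 and 15.4 and peaks of TWIST2, MYOD and H3K27ac in every library. The next, chr2:220295530-220295724, had 13.7 and 14.1, with H3K27ac in both controls and in neither knockdown library. The region at chr2:220379000-220379232, with 10.9 and 12.3, had the opposite, with H3K27ac in neither control and in both knockdown libraries. It was chosen after its values were seen. Over the locus, MYOD had 23 and 23 peaks in the controls and 22 and 19 after knockdown, and H3K27ac had 19 and 16 against 12 and 14. At 6 of the 7 regions there was tagged TWIST2, and all 7 had MYOD in at least 1 library.

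**Figure D5:**
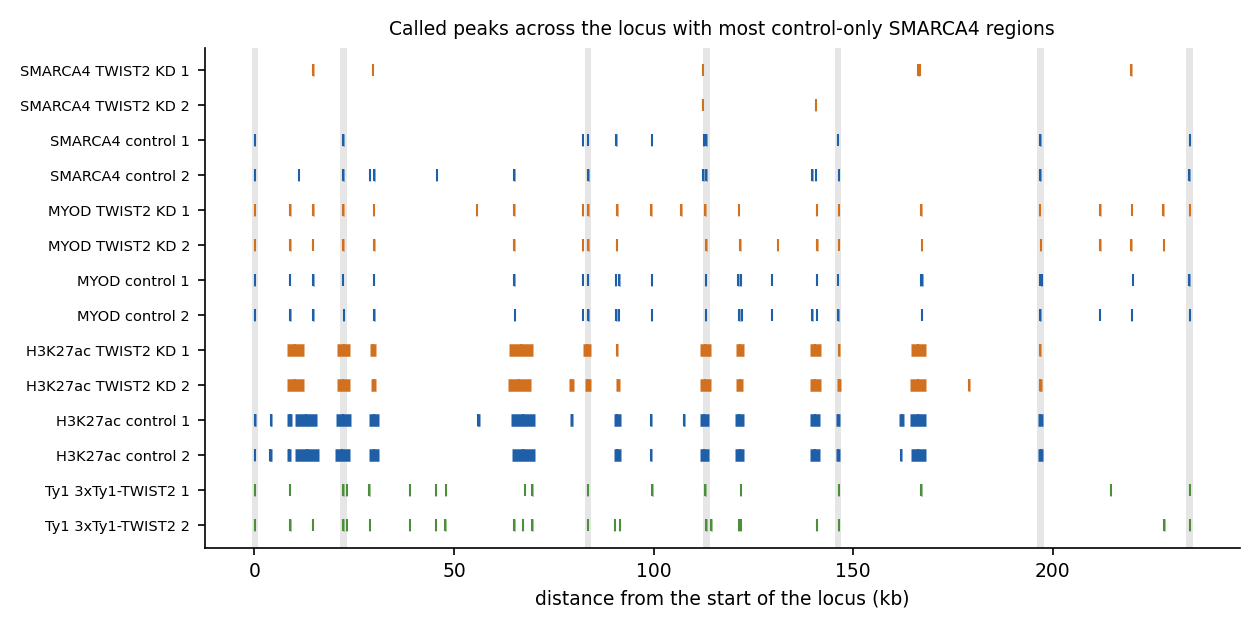
Called peaks of each library (rows) along the locus with most control-only SMARCA4 regions, by distance in kb from its start (x axis), with control libraries in blue, TWIST2 knockdown (KD) libraries in orange and Ty1 libraries in green. Grey bands mark the 7 control-only regions, drawn wider than their true width to be visible. No SMARCA4 knockdown peak overlaps these regions, although 1 peak of each knockdown library lies beside the band at 113 kb.

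The second locus, chr22:43076667-43264040, held 6 control-only regions of modest strength. The strongest were chr22:43252942-43253236, with counts of 6.43 and 7.81, and chr22:43139647-43139912, with 6.43 and 7.36. SMARCA4 had 8 and 9 peaks in the controls and 0 and 2 after knockdown. MYOD had 15 and 14 peaks against 12 and 10, and H3K27ac had 15 and 14 against 10 and 8, so that both were lower in number in each knockdown library than in each control. Tagged TWIST2 lay at 4 of the 6 regions.

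Of the 6 loci with 5 control-only regions that came next by summed strength, chr11:1848551-2000422 had its strongest regions at chr11:1988981-1989186, with 14.6 and 16.3, and chr11:2000188-2000422, with 12.2 and 16.5. At the last of these MYOD was called in 1 control and in no knockdown library. In chr14:105527054-105803197 the strongest were chr14:105642522-105642725, with 15.8 and 15.6, and chr14:105721433-105721687, with 9.42 and 9.15, both with MYOD and H3K27ac in every library. The locus chr8:131276021-131531456 was the one with more H3K27ac in both knockdown libraries, with 16 and 13 peaks in the controls and 18 and 22 after knockdown. Its strongest regions were chr8:131455776-131455970, with 11.4 and 11.6, and chr8:131370443-131370684, with 9.42 and 11.2 and no MYOD peak in any library.

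The locus chr3:57094453-57199357 was the most compact of the 8, with 5 control-only regions in 105 kb. Its strongest were chr3:57193394-57193588, with 8.78 and 10.5, and chr3:57112665-57112940, with 9.42 and 9.82, and neither had a Ty1 peak. MYOD peaks there numbered 10 and 12 in the controls and 9 and 6 after knockdown. In chr19:11253300-11404718 the strongest were chr19:11253300-11253535, with 11.8 and 13.8, no MYOD peak and H3K27ac in every library, and chr19:11404489-11404718, with 9.42 and 6.47. The locus chr17:55715728-55952100 was the weakest, and its strongest regions, chr17:55715728-55716066 and chr17:55951851-55952100, had 4.28 and 6.25 and 4.50 and 5.13.

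In all 8 loci both knockdown libraries had fewer SMARCA4 peaks than both controls, which the choice of loci favours. None held a knockdown-only SMARCA4 region. That class is only 1.91% of all SMARCA4 regions, so its absence is not read as a result about these loci. H3K27ac had fewer peaks in both knockdown libraries than in both controls at 5 of the 8 and more at 1. MYOD had fewer at 4 and more at 0. Over all 482 loci, H3K27ac had fewer at 60 and more at 102, and MYOD had fewer at 65 and more at 27. At the other 320 loci for H3K27ac and 390 for MYOD, the conditions overlapped or tied. In the 217 loci from regions with both controls and 1 knockdown library, H3K27ac had fewer at 22, more at 61 and overlap at 134. MYOD there had fewer at 27, more at 20 and overlap at 170. The H3K27ac pattern of the 8 loci thus did not hold for the 482. Where the conditions did not overlap there, higher H3K27ac numbers after knockdown were the more frequent, as in the lists as a whole.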

How the data were processed

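The 14 peak lists used here came from 1 library each. Per the submitters' processing notes, the tools were HOMER 4.4, Bowtie2 2.3.4.3, bedtools 2.29.2 and SAMtools 0.1.19, and the builds hg19 and GRCh37. Per the file headers, the authors called SMARCA4 peaks with HOMER against input (false discovery rate 0.001), and each peak had to exceed input, and also its local 10000 bp, by 4-fold. The deposited SMARCA4 lists give a tag signal normalized to 10000000 tags, a fold ratio over input and local background, a peak score and a p-value per peak, which are the authors' values. The deposited MYOD, H3K27ac and Ty1 lists give other columns only, the peak positions, so their depth is unknown.

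Peaks were merged at 1 bp overlap, and a library had a region if a peak of it overlapped. A TWIST2 region is a merged Ty1 region with a peak in both libraries. Strength is the normalized tag count, used to describe. The score and p-values were not used. Library shares were compared by the exact two-sided permutation test over libraries, whose smallest p is 0.33. Intervals are 95% Wilson intervals. Named regions were the 10 strongest, the 8 loci with most members (ties by summed strength) with their 2 strongest members, the strongest with joint losses or with gains, and those at the edges of the rule. The members and lists were chosen with earlier results of these data known. Alternatives were other merge distances, a fold of at least 8, equal or shorter lists, other overlap rules, other locus gaps, each library left out and the replicate number as a block. Tools were scipy 1.17.1, pandas 2.3.3, numpy 2.4.6 and matplotlib 3.10.9 in Python 3.11.15. The class and share calculations were tested on simulated data with 48000 sites, where 100% of control-only regions were recovered. There, peaks of the same site always overlapped and sites never met, so the recovery tests the code alone. Unequal windows and closely spaced peaks were not simulated. No annotation or sequence of build hg19 was used, so genes and sequences at these regions were not analysed here.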

Additional observations from a re-analysis of the deposited data

How the results depend on the processing

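The lower MYOD share at control-only SMARCA4 regions after knockdown kept its direction in all 17 alternatives that could move it, from -4.02 to -8.78 percentage points, and no p could pass a threshold with 2 against 2 libraries. The MYOD changes at regions with TWIST2 (-0.198 to -3.39 points) and without it (-5.51 to -12.4 points) kept theirs in 18. In a replicate block, with labels exchanged only within replicate numbers, the differences are -7.03 (MYOD) and -0.0624 points (H3K27ac) by construction, so the block says nothing about their stability, and its smallest possible p is 0.5. Same-numbered libraries did not deviate together (correlations -0.002 and -0.0372), so the numbers are not taken as pairs. The near-zero H3K27ac difference had no stable sign: it was 0 with a fold over input of at least 8, 1.35 points with a peak in at least 1 control, and -0.655 to 1.37 points when libraries were left out.

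The number of control-only regions was 223 with a fold of at least 8 (none of the 10 strongest among them), 2023 with equal list lengths, 1930 with the upper 0.5 of each list, 23068 with a peak in at least 1 control, and 4048 to 18442 when a SMARCA4 library was left out, most without control 1 and 8087 without control 2, where a single control list decided. The number of loci with at least 2 was 4, 266, 241 and 3988 under the first 4 of these settings, 701 to 3600 with a library left out, and 314 with gaps of at most 50000 bp. Median strength was 8.105, 9.21, 9.515 and 6.25 under the same 4 settings, 7.465 and 7.42 with peaks merged within 500 and 1000 bp, and 6.25 to 8.095 with a library left out. The TWIST2 share was 38.3% and 39.9% with those merges, 28.3% with a peak in at least 1 control, 31.2% with an overlap of 0.5 of the shorter interval, 50.2% with a peak in either Ty1 library, and 28.8% to 37.5% with a library left out. The share at control-only MYOD regions was 7.41% and 8.17% with the merges, 7.17% with a fold of at least 8, 4.93% with a peak in at least 1 control, 4.43% with the stricter overlap, and 4.88% to 5.68% with a library left out. The causes were not tested. Leaving out chromosomes 13 and X, and the MYOD libraries in turn for the TWIST2 split, were chosen after seeing the data. The MYOD, H3K27ac and Ty1 lists carry no tag counts, so weak signal below their thresholds was not detectable.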
